A study of Mus musculus with 54 samples.

Results

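The effect of 16,16-dimethyl prostaglandin E2 (dmPGE2) on mouse hematopoietic stem cells (HSC) that received no radiation was measured at 1 h, in 7 RNA-seq libraries from dmPGE2-treated mice and 15 from vehicle-treated mice, out of 54 libraries in the series. The libraries were chosen by the treatment and radiation written in the names of their count columns, and all 15 non-irradiated vehicle libraries were pooled because their names give no time. Of those 15 mice, the sample labels place 8 at 1 h and 7 at 24 h.

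Prostaglandin E2 is a lipid mediator that acts on G protein-coupled receptors, EP1 to EP4, encoded by Ptger1 to Ptger4. EP2 and EP4 couple to Gs, which raises cyclic AMP (cAMP). Protein kinase A then phosphorylates the transcription factor CREB, and genes with CREB sites near their start are among the first to respond. EP3 couples mainly to Gi, which lowers cAMP, and EP1 mainly to calcium. In HSC, PGE2 and its stable analogue dmPGE2 are known for effects on number, homing and survival.

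All groups were C57BL/6 mice whose HSC carry a ZsGreen reporter at the Fgd5 locus, and males and females were used. The drug group received dmPGE2 subcutaneously and the vehicle group ethanol, both diluted in saline, 30 min before the time of irradiation, and neither of these groups was irradiated. The labels state a dmPGE2 amount of 35 µg, whereas the stated 3.5 µL of a 0.1 mg/ml stock holds 0.35 µg, so the dose is uncertain. Bone marrow was taken 1 h (or, for 7 of the vehicle mice, 24 h) after that time, and HSC were sorted as SLAM LSK cells with reporter fluorescence. For comparison, 8 vehicle and 8 dmPGE2 libraries from mice given 8.53 Gy and sampled at 1 h were used. Because each library holds RNA of a sorted pool, fewer cells with a transcript and less transcript per cell cannot be told apart.

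Total counts per library were 19963860 to 22976367 in the dmPGE2 group and 15049364 to 25278219 in the vehicle group. The vehicle libraries formed 2 sets. Set A comprised 8 libraries whose sample numbers (42 to 70) ran among those of the dmPGE2 libraries (43 to 67), and set B comprised 7 libraries with sample numbers 79 to 85. Genes with a count numbered 14739 to 15371 in dmPGE2 libraries, 14726 to 15287 in set A and 14081 to 14641 in set B. The 15 vehicle columns carry only 8 different number tags in their names, and 7 tags occur in both sets. Every one of these 7 pairs was most alike to its own tag (correlation of deviations from the set means 0.22 to 0.51) and matched in Xist and Y-linked counts. Their counts nevertheless differed beyond counting error, with a mean chi-square per gene of 20.5 to 47.1 (30.9 to 96.8 between different tags), so they were not merged in the fit. Counts of Xist against Y-linked genes gave 10 male-type and 5 female-type vehicle libraries, whereas the labels give 8 males and 7 females. In the dmPGE2 group the counts and labels both gave 3 and 4. These tags recur in the names of dmPGE2 and irradiated libraries, and what a tag marks is not stated. Whether same-tag vehicle libraries share a mouse, and which set was taken at which time, is not given in the sources used here. If they share a mouse, 15 overstates the number of independent vehicle samples, so results are given also with same-tag libraries summed (8 vehicle samples) and with set A only. Set B differed from set A in 2284 of 13178 genes (17.3%) when paired by tag.

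The sorted cells carried transcripts of HSC, among them genes of the gate. In CPM, the counts scaled to a common library size, medians were 102.6 with dmPGE2 and 100.7 with vehicle for Fgd5, 1605 and 1570 for Kit, and 438 and 417 for Hlf, a transcription factor of HSC. Scaled by library totals, medians with dmPGE2 and vehicle were 239 and 332 CPM for Ly6a, which encodes Sca-1, with overlapping ranges. They were 59.1 and 56.4 CPM for Slamf1, and 16.1 and 15 CPM for Cd48, listed as low in sorted HSC. None of 10 HSC markers was called with all vehicle libraries, and against set B 1 was called higher and 1 lower. Among markers of other cells, the summed level ranged from 162 to 1509 CPM with dmPGE2 and 272 to 1815 CPM with vehicle for 13 neutrophil genes, and from 4.7 to 1095 CPM and 2.75 to 589 CPM for 8 mast cell and basophil genes. For 9 dendritic cell genes the sums were 309 to 353 CPM and 232 to 325 CPM, and within that list Irf8 was called higher (log2 fold change 0.90 ± 0.19 SE). The hemoglobin genes Hba-a1, Hba-a2, Hbb-bs and Hbb-bt are listed at 0 in all 22 libraries. The part of these markers in the results was not tested.

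At 1 h, dmPGE2 had raised transcripts of transcription factors such as Nr4a1 and Klf2, the kinase gene Sik1 and the receptor gene Plaur, and had lowered Mycn and Cited2. By edgeR's quasi-likelihood test (Benjamini-Hochberg adjusted p below 0.05), 1028 of 13572 genes tested were higher (7.57%) and 1114 were lower (8.21%). The higher genes included the larger changes: 186 were at least 2-fold higher and 117 at least 2-fold lower. With same-tag libraries summed, 859 genes were higher and 999 lower, of which 826 and 965 were among those already called. With set A only, 848 were higher and 958 lower, and 735 and 821 were shared. No gene was called in opposite directions between these fits. Scaling by the upper quartile moved the split to 737 higher and 1405 lower, that is 34.4% of calls higher in place of 48%. The plot of all genes by level and change shows the wide upward spread against the narrow downward one.

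**Figure D1:**
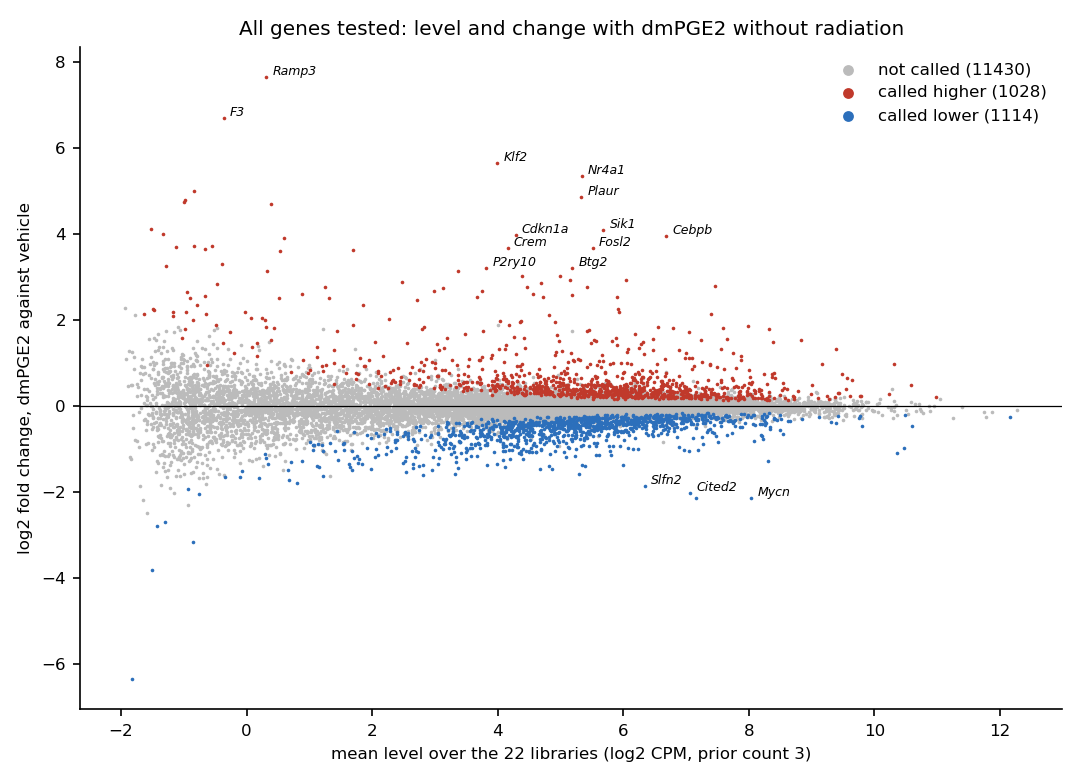
Each point is 1 of 13572 genes, by its mean level over 22 libraries (log2 CPM, horizontal) and its log2 fold change with dmPGE2 against vehicle (vertical); red, called higher (1028), blue, called lower (1114), grey, not called. The largest rises, such as Ramp3 at 7.66 and Nr4a1 at 5.35, lie farther from 0 than the falls of well expressed genes such as Mycn at -2.12.

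Of the receptors for the drug, Ptger3, Ptger4 and Ptger1 were well above 0 in every vehicle library, whereas Ptger2 was at 0 in some. Per kilobase of exon, the vehicle medians were 35.2 CPM for Ptger3 (EP3), 26.3 for Ptger4 (EP4), 13.9 for Ptger1 (EP1) and 0.0725 for Ptger2 (EP2). Ptger3 ran from 64.5 to 74.5 CPM with dmPGE2 (median 69) and from 53.03 to 85.8 CPM with vehicle (median 71.1), a log2 fold change of -0.04 ± 0.08 that was not called (adjusted p = 0.79). Ptger4 fell slightly, from a vehicle median of 87.5 CPM to 71.4 CPM, with overlapping ranges of 63.3 to 108 and 49 to 78.6 CPM (log2 fold change -0.37 ± 0.10, adjusted p = 0.010). Against set B alone that call was lost (-0.32, adjusted p = 0.069). Tbxa2r, the thromboxane receptor, fell from 39.4 to 20.9 CPM at the median (-1.05 ± 0.20, adjusted p = 0.00043). Of 6 prostanoid receptors tested these 2 were lower and none was higher, where 8.21% of all genes were lower and 7.57% higher. Ptger1 (0.13 ± 0.15), Ptger2 (0.77 ± 0.70) and the prostacyclin receptor Ptgir (0.50 ± 0.30) were not called, and Ptger2 and Ptgir were scarce, with medians of 0.833 and 2.2 CPM in the dmPGE2 group. Ptgdr, Ptgdr2 and Ptgfr were too low to be tested.

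Downstream of the receptors, few genes for making, sensing or breaking down cAMP were called. Over all genes, 7.57% were higher and 8.21% lower. Of 21 genes for G protein subunits, adenylyl cyclases, protein kinase A and Epac, 3 subunits of protein kinase A were called higher with log2 fold changes of 0.24 (Prkar1a), 0.20 (Prkaca) and 0.16 (Prkar2b). None of the 3 calls held against set A alone, and 2 held with same-tag libraries summed. Of 13 phosphodiesterases, Pde4b and Pde4d, both enzymes of the cAMP-specific PDE4 family, were higher and none was lower. Pde4b measured 657 to 927 CPM in dmPGE2 libraries (median 743) and 167 to 318 CPM in vehicle libraries (median 204). The groups did not overlap, and the log2 fold change was 1.81 ± 0.10 (adjusted p = 2.3e-13). Pde4d measured 37 to 68.2 CPM (median 54.3) against 7.1 to 24.5 CPM (median 12.1), again without overlap (1.97 ± 0.17, adjusted p = 4.7e-09). Their family member Pde4a, at 0.34 ± 0.16, was not called (adjusted p = 0.17).

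Among 14 CREB factors, coactivators and salt-inducible kinases, Crem and Sik1 rose and Atf2 fell (all genes: 7.57% higher, 8.21% lower). Crem, whose transcripts include the cAMP-induced repressor ICER, ran from 61.3 to 190 CPM with dmPGE2 (median 99.2) and from 4.14 to 20.6 CPM with vehicle (median 7.38). Sik1, a kinase that holds CREB's coactivators in the cytoplasm, ran from 303 to 518 CPM (median 358) against 8.98 to 43 CPM (median 19.9). Neither gene overlapped between groups, and the log2 fold changes were 3.69 ± 0.28 for Crem and 4.11 ± 0.23 for Sik1 (adjusted p = 9e-10 and 4.2e-12). Atf2 was lower by a small amount (-0.35 ± 0.07, adjusted p = 0.00095). The factor Creb1 itself, at -0.29 ± 0.11, was not called with all vehicle libraries (adjusted p = 0.078) and was called lower against set A (-0.41, adjusted p = 0.027). Creb3, Creb5, Atf1, Crtc1, Crtc2, Crtc3, Sik2, Sik3, Crebbp and Ep300 were not called, with log2 fold changes from -0.29 to 0.90. The plot of receptors, phosphodiesterases, CREB family and NR4A genes shows these few large rises among members near 0.

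**Figure D2:**
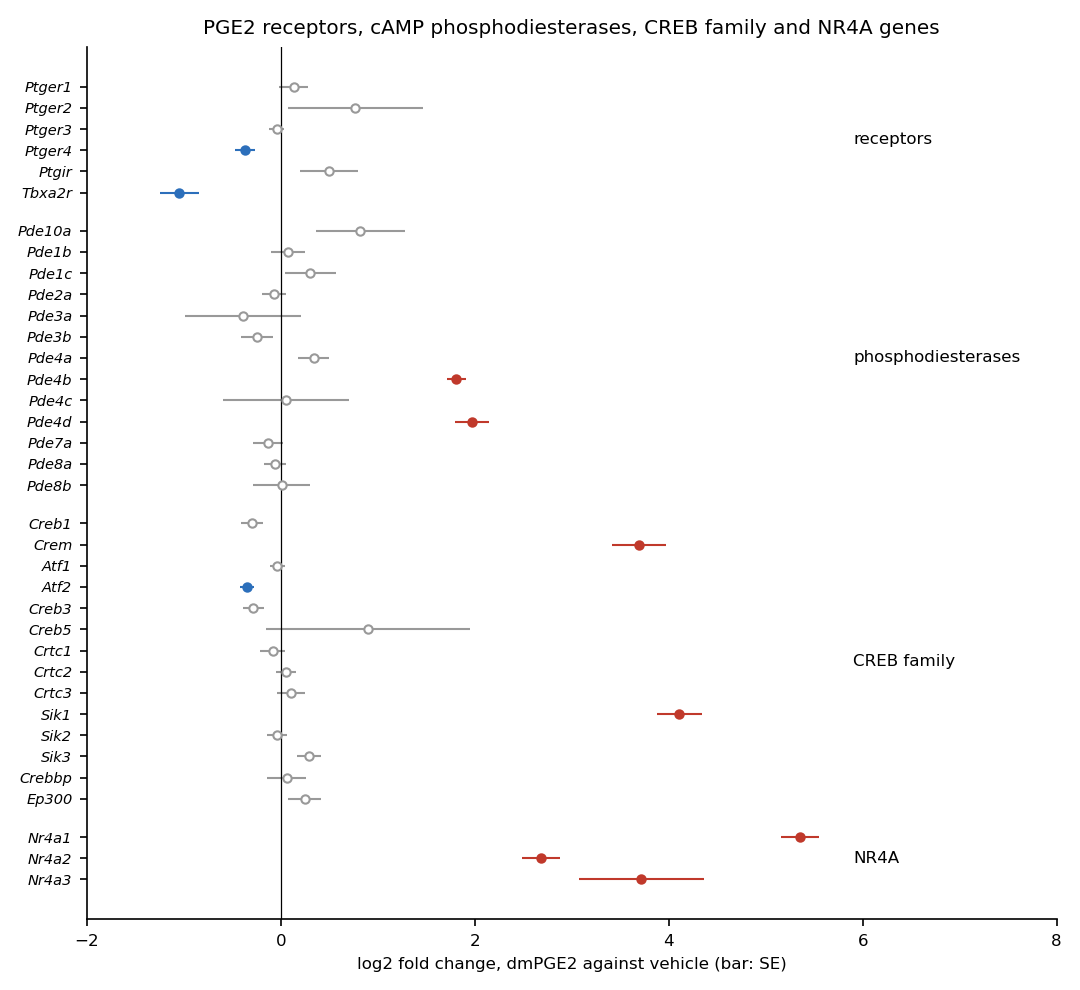
Log2 fold change with dmPGE2 against vehicle (horizontal; bars, SE from the quasi-likelihood test) of 6 prostanoid receptors, 13 phosphodiesterases, 14 CREB family genes and the 3 NR4A genes; filled points were called and open points were not. Pde4b, Pde4d, Crem, Sik1 and the NR4A genes stand to the right, between 1.81 and 5.35, and the receptors lie at or left of 1.

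Promoters of risen genes were searched for the motif that CREB binds. Promoters were taken from RefSeq windows on GRCm38.p6 (250 bases before the start) and searched for the full motif TGACGTCA, which reads the same on both strands, and for its core TGACG on either strand, which the full motif also contains. Among 10325 genes tested that had a window, 2.69% held the full motif and 27% the core. Among 785 genes called higher the shares were 3.95% and 34.4%, and among 891 called lower they were 2.36% and 25.1%. Of the 14 cAMP and CREB targets called higher, 11 had a window, and of these 8 held the core (72.7%) and 1, Dusp1, the full motif. Because that list was drawn up from known targets, its motif share is not a test of this response. Btg2, Plk2 and Cebpb, shown here, are not in that target list. Of 21 candidates (the strongest risers and those targets), 12 held the core. The 5 windows shown here were chosen because they hold a motif, and windows that overlap an annotated exon were left out. They are therefore not typical of the risen genes. Candidates whose window held neither motif included Plaur, Cdkn1a and Fosl2. Btg2 (chr1:134079156-134079405, minus strand) and Plk2 (chr13:110394794-110395043, plus strand) hold the full motif, beginning 166 and 62 bases before the start. Nr4a1 (chr15:101266596-101266845, plus strand) and Nr4a2 (chr2:57124004-57124253, minus strand) hold 4 cores each, and Cebpb (chr2:167688665-167688914, plus strand) holds 3. Each runs 5′ to 3′ toward the gene, with motif bases in capitals.
Btg2: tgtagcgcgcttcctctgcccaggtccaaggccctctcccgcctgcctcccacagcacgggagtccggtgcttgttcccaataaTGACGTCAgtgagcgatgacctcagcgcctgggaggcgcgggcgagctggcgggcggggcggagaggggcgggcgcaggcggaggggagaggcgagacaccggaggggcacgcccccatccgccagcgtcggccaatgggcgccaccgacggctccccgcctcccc
Plk2: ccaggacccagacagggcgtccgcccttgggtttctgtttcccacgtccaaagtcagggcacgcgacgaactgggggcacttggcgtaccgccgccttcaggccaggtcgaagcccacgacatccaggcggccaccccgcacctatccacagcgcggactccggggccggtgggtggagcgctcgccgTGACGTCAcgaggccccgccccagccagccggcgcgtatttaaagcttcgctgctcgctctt
Nr4a1: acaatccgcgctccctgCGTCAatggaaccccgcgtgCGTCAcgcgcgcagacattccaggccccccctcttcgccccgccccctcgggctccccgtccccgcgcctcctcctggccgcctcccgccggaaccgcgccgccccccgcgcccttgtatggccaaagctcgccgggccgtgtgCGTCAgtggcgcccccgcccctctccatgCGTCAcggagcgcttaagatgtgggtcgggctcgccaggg
Nr4a2: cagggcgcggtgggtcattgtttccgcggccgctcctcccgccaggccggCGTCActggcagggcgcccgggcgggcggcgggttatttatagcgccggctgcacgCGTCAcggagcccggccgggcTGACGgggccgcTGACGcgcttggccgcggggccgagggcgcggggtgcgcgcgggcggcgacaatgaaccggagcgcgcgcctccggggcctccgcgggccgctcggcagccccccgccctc
Cebpb: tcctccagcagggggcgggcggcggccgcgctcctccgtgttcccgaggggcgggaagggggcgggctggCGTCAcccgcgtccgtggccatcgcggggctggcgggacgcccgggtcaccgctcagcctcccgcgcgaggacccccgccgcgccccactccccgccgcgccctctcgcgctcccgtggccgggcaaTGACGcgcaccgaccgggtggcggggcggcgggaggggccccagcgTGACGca
A match shows that the letters are present and not that a factor binds there.

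The cAMP and CREB target list as a whole moved upward. Of 21 members tested, 14 were higher and 1 was lower, with a median log2 fold change of 1.81, where the median of all genes was 0.009. The same numbers, 14 and 1, were called against set A alone and with same-tag libraries summed. Over all genes, 7.57% were higher and 8.21% lower. Most of the higher targets are counted in other lists too, so the lists are not separate evidence. They are the NR4A genes, Pde4b and Pde4d (phosphodiesterases), Crem and Sik1 (CREB family), and Fosl2 and Atf3 (AP-1 and ATF). Rgs2, Dusp1, Per1 and Vegfa are also in other lists. The NR4A genes, orphan nuclear receptors induced by many signals, were all higher. Nr4a1 (chromosome 15) measured 341 to 774 CPM in dmPGE2 libraries (median 499) and 7.58 to 23.5 CPM in vehicle libraries (median 12.96). The lowest treated library thus lay far above the highest vehicle library, and the log2 fold change of 5.35 ± 0.20 is 40.8-fold (adjusted p = 2.1e-15). Nr4a2 measured 26.2 to 72.7 CPM (median 48.3) against 4.47 to 12.3 CPM (median 7.69), a log2 fold change of 2.68 ± 0.20. Nr4a3 was scarce, at 0.937 to 3.36 CPM against 0 to 0.638 CPM, and was higher by 3.71 ± 0.64 (adjusted p = 0.00014). Other targets that rose were Vegfa (3.04 ± 0.16), a vascular growth factor, the phosphatase gene Dusp1 (2.79 ± 0.41), the clock gene Per1 (2.19 ± 0.30), Rgs2 (1.60 ± 0.11), which shuts off G protein signals, and the GTPase gene Gem (1.08). Members that were not called included Fosb (-0.06), Ppargc1a (0.14), Id1 (-0.16), Id2 (-0.29), Id3 (-0.03) and Nfil3 (0.36).

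Cited2 was the member that fell. It encodes a regulator that binds the coactivators CBP and p300 and is known to be needed to maintain HSC. It measured 43.8 to 69.5 CPM with dmPGE2 (median 48.1) and 146 to 306 CPM with vehicle (median 211). No library overlapped, and the log2 fold change was -2.01 ± 0.13 (adjusted p = 9.1e-12).

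**Figure D3:**
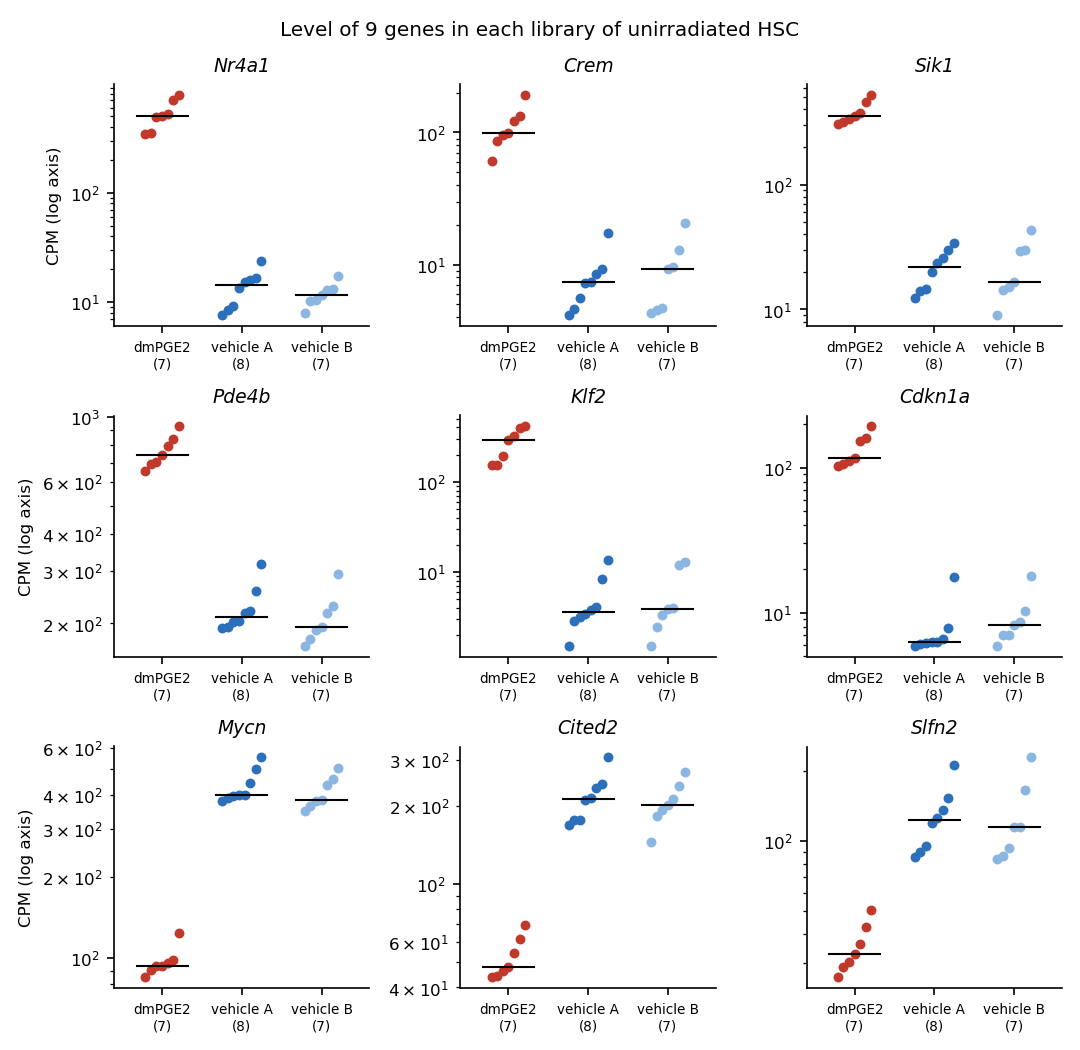
CPM of 9 genes in each library on log axes (vertical), with 7 dmPGE2 libraries, 8 vehicle libraries of set A and 7 of set B side by side; each point is 1 library and each line a median. The dmPGE2 libraries lie apart from both vehicle sets in all 9 genes, above them for Nr4a1, Crem, Sik1, Pde4b, Klf2 and Cdkn1a and below them for Mycn, Cited2 and Slfn2.

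Some vehicle libraries stood above the rest in several of the risen genes, for some genes in pairs that share a tag. Fosl2, the AP-1 factor Fra-2, measured 139.9 and 117 CPM in the 2 vehicle libraries with tag 1 and at most 22.6 CPM in the other 13. Dusp1 measured 325 and 327 CPM in the pair with tag 2, and Btg2 measured 49.7 and 49.8 CPM in that same pair. With tag 1, Cdkn1a measured 17.5 and 18.0 CPM, against at most 10.2 CPM elsewhere among vehicle libraries. The dmPGE2 libraries were higher than all of these, at 267 to 466 CPM for Fosl2, 445 to 1442 CPM for Dusp1, 104 to 248 CPM for Btg2 and 103 to 192 CPM for Cdkn1a. Summing same-tag libraries left the log2 fold changes at 3.68 for Fosl2, 2.83 for Dusp1 and 3.24 for Btg2. Other risen genes differed within a pair. With tag 1, Cebpb measured 122 CPM in set B and 14.3 CPM in set A, and Ddit4 measured 47.4 and 12.2 CPM.

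Some immediate early factors were called higher and others were not, where 7.57% of all genes were higher and 8.21% lower. Of 12 AP-1 and ATF genes, 7 were higher and 1 lower (median log2 fold change 1.07). Fosl2 was the largest, with a vehicle median of 13.9 CPM, a dmPGE2 median of 380 CPM and a log2 fold change of 3.67 ± 0.55 (adjusted p = 5.6e-05). Maff, a small MAF factor, rose by 1.89 ± 0.15, and Junb by 1.74 ± 0.38 with overlapping groups. Jun, at 0.05, was not called. Fos was not called either, although its estimate of 1.76 was close to that of Junb. Of 25 EGR, IER and other immediate early genes, 13 were higher and 1 lower (median 1.02), among them Egr2 (2.86 ± 0.59), Plk2 (2.93 ± 0.25), a polo-like kinase, and Phlda1 (2.605 ± 0.30). Myc was the lower member, at -0.35, and was not called against set B (adjusted p = 0.078). Plk2 measured 180 to 429 CPM with dmPGE2 (median 246) and 14.4 to 61.3 CPM with vehicle (median 36.8).

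Krüppel-like factors moved in both directions. Klf2, known for its part in quiescence and trafficking of blood cells, had the largest rise among well expressed genes. It measured 152 to 410 CPM in dmPGE2 libraries (median 287) and 1.5 to 13.6 CPM in vehicle libraries (median 3.82). This is a log2 fold change of 5.67 ± 0.39, or 50.7-fold (adjusted p = 5.4e-10), and Klf2 lies on chromosome 8. Klf4 was low in vehicle libraries, at 0.127 to 1.69 CPM, and reached 4.67 to 17.6 CPM with dmPGE2 (3.91 ± 0.34). Klf6 rose by 1.13 ± 0.14 and Klf13 by 1.01. Klf11, by contrast, fell from a median of 85.7 CPM to 33.3 CPM without overlap (-1.35 ± 0.13), and Klf10 fell by 0.65 on the log2 scale. In all, 6 of 15 members were higher and 2 lower, where 7.57% of all genes were higher and 8.21% lower. Cebpb, a bZIP factor of myeloid gene expression, measured 443 to 1012 CPM (median 671) against 14.3 to 122 CPM (median 41.8), and its log2 fold change was 3.96 ± 0.24.

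Some inhibitors of signalling were among the risen genes. The list counts that follow stand beside 7.57% higher and 8.21% lower over all genes tested. Among 14 MAP kinase phosphatases, Sprouty and Spred genes, Dusp1, Dusp2, Dusp5 and Spry2 were higher and none was lower. Dusp5, which acts on ERK in the nucleus, had very little spread, at 72.2 to 107 CPM (median 90.5) against 11.5 to 21.1 CPM (median 15.7), a log2 fold change of 2.55 ± 0.10 (adjusted p = 1.7e-15). Dusp2 measured 527 to 756 CPM against 99.4 to 406 CPM (1.88 ± 0.21). Rgs1 and Rgs2 were the 2 of 9 RGS genes that were higher, and none was lower. Socs3, an inhibitor of cytokine signalling through JAK and STAT, measured 55 to 279 CPM (median 129.5) against 11.8 to 34.9 CPM (median 18.8) and rose by 2.94 ± 0.26. In the SOCS list 3 of 8 genes were higher, and Socs5 was lower (-0.56 ± 0.13). Skil and Smad7, which restrain TGF-beta signals, measured 164 and 75.3 CPM at the median with dmPGE2 against 22.4 and 18.9 CPM with vehicle. Neither overlapped between groups, and the log2 fold changes were 2.79 ± 0.14 and 1.96 ± 0.10. They were the 2 higher members of 11 in the TGF-beta list, and Tgif1 was lower (-0.51 ± 0.09).

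Receptors and surface proteins gave the largest fold changes of named genes. Ramp3, a partner protein that sets the ligand specificity of calcitonin-type receptors, was at 0 to 0.845 CPM in vehicle libraries (median 0.0793) and at 20.9 to 65.5 CPM in dmPGE2 libraries (median 38.6). The log2 fold change of 7.66 ± 0.45 (adjusted p = 3.9e-12) rests on few vehicle counts. Ramp2, another member of its family, was lower (-1.06), as was their receptor Calcrl (-0.55). Tissue factor, F3, the starter of coagulation, likewise went from 0 to 0.317 CPM up to 8.83 to 17.1 CPM (6.71 ± 0.42). Plaur, the urokinase receptor, was abundant after treatment, at 280 to 508 CPM (median 430) against 8.27 to 28.3 CPM (median 12.1), a log2 fold change of 4.86 ± 0.19. Across 15 G protein-coupled receptors and partners, 5 were higher and 5 lower (all genes: 7.57% higher, 8.21% lower). The proton-sensing receptor Gpr65 (2.26 ± 0.26) and the lipid-sensing Gpr132 (1.76 ± 0.08) were higher without overlap. P2ry10, a G protein-coupled receptor of leukocytes, rose from a median of 7.62 to 67.6 CPM (3.22 ± 0.21), and Fzd4, a Wnt receptor, from 5.09 to 48.4 CPM (3.15 ± 0.19).

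Among 26 genes of homing and adhesion, 3 were higher and 2 lower, of which Plaur has been given. These counts are near the shares over all genes (7.57% higher and 8.21% lower), and the list median was 0.002. S1pr1, the receptor for the egress signal sphingosine 1-phosphate, measured 161 to 186 CPM (median 170) against 59.9 to 99.9 CPM (median 81.1) and rose by 1.11 ± 0.08 (adjusted p = 1.6e-10). Selplg, the selectin ligand PSGL-1, rose by 0.66 ± 0.09. Cxcr4, the receptor for the marrow chemokine CXCL12, was lower (-0.63), and so was the integrin gene Itgb3 (-0.95 ± 0.18). The other 21 members, including Itga4, Itgb1 and Cd44, were not called.

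Cell cycle inhibitors were higher or not called, and p53 targets went in both directions. Over all genes, 7.57% were higher and 8.21% lower. Cdkn1a, which encodes the CDK inhibitor p21, was at 103 to 192 CPM with dmPGE2 (median 116) and at 5.86 to 18 CPM with vehicle (median 6.98), a log2 fold change of 3.98 ± 0.21 or 15.8-fold (adjusted p = 2.9e-13). Of 10 CDK inhibitor, BTG and TOB genes, 5 were higher and none lower, with Btg2 at 3.23 ± 0.29, Tob2 at 1.25 ± 0.07 and Cdkn2d at 0.67 ± 0.06. The p53 list showed no common shift. Of 35 members, 9 were higher and 6 lower, with a median of 0.04, and against set A alone 7 were higher and 4 lower. The higher members included Cdkn1a, Btg2, Plk2 and Ddit4, an inhibitor of mTORC1 (3.03 ± 0.22), whereas Phlda3 was lower (-0.78) and Mdm2 (-0.06), Bax (0.10) and Gdf15 (0.17) were not called. Of 43 G1/S genes 1 was higher and 4 lower, with a median of 0.006, and the lower calls were near the share over all genes. Of 38 G2/M genes 1 was higher, with a median of 0.23, and with same-tag libraries summed no G2/M gene was called.

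Among genes for survival and death, 1 of 15 survival genes was higher and 1 lower, and 3 of 17 pro-apoptotic genes were higher and 1 lower. Over all genes 7.57% were higher and 8.21% lower, so the survival list was near that background. The medians of the 2 lists were 0.14 and 0.10. Mcl1, an anti-apoptotic BCL2 relative on which HSC depend, measured 445 to 564 CPM against 237 to 331 CPM and rose by 0.78 ± 0.06. The pro-apoptotic Bcl2l11 (BIM) rose by 1.62 ± 0.18 and the death receptor gene Tnfrsf10b by 1.85 ± 0.14. Pmaip1 (NOXA) was also higher (1.73 ± 0.54), though not against set B (adjusted p = 0.094). The caspase-8 inhibitor gene Cflar was lower (-0.55 ± 0.09), as was the pro-apoptotic Bbc3 (-0.55 ± 0.15), the latter not against set A (adjusted p = 0.096). In the NF-kB list 7 of 26 were higher and none lower. Of these, Il1b (1.89 to 3.3 CPM against 0 to 0.688 CPM) and Cxcl2 (2.05 to 8.17 CPM against 0 to 1.79 CPM) stayed scarce, while the activation marker Cd69 went from 12.95 to 32.4 CPM at the median. The inhibitor Nfkbia, at -0.29, was not called (adjusted p = 0.050), though it was called lower against set B (adjusted p = 0.012). Among 28 type I interferon genes none was higher and only Irf9 was lower (-0.66 ± 0.10). Of 27 cytokine receptor genes 4 were higher and 4 lower, and 4 and 3 with same-tag libraries summed. Ifngr1, the interferon gamma receptor, rose from a median of 234 to 628 CPM (1.51 ± 0.10), whereas the type I interferon receptor genes Ifnar1 and Ifnar2 were lower.

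Of 26 glycolysis and hypoxia genes, 8 were higher and none lower, where 7.57% of all genes were higher and 8.21% lower. The 8 were Hif1a, Vegfa, Slc2a1, Slc2a3, Hk2, Pfkfb3, Egln3 and Ndrg1. Against set B alone 7 members were higher and 3 lower. Egln3, an oxygen-sensing prolyl hydroxylase, rose from a median of 13.2 to 96.3 CPM (2.87 ± 0.12, adjusted p = 2.3e-15), and Hk2, an inducible hexokinase, from 29.6 to 194 CPM (2.56 ± 0.23). The glycolytic enzyme genes Gapdh (-0.10 ± 0.07) and Pkm (-0.02 ± 0.06) were not called. Of 38 respiratory chain genes 2 were higher, and none with same-tag libraries summed. For these genes the vehicle sets differed, with 3 higher and 0 lower against set A and 1 higher and 5 lower against set B. Pdk4, a kinase that inhibits pyruvate dehydrogenase, fell from a median of 10.1 to 4.2 CPM (-1.59 ± 0.26). The stress response list was mixed, with 4 of 24 members higher and 7 lower, including the pseudokinase Trib3 (-1.14 ± 0.16). Of the 16 clock genes, Per1 and Rora were higher (Rora not against set B, adjusted p = 0.081) and Nr1d1, a clock repressor, was lower (-1.004 ± 0.13).

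**Figure D4:**
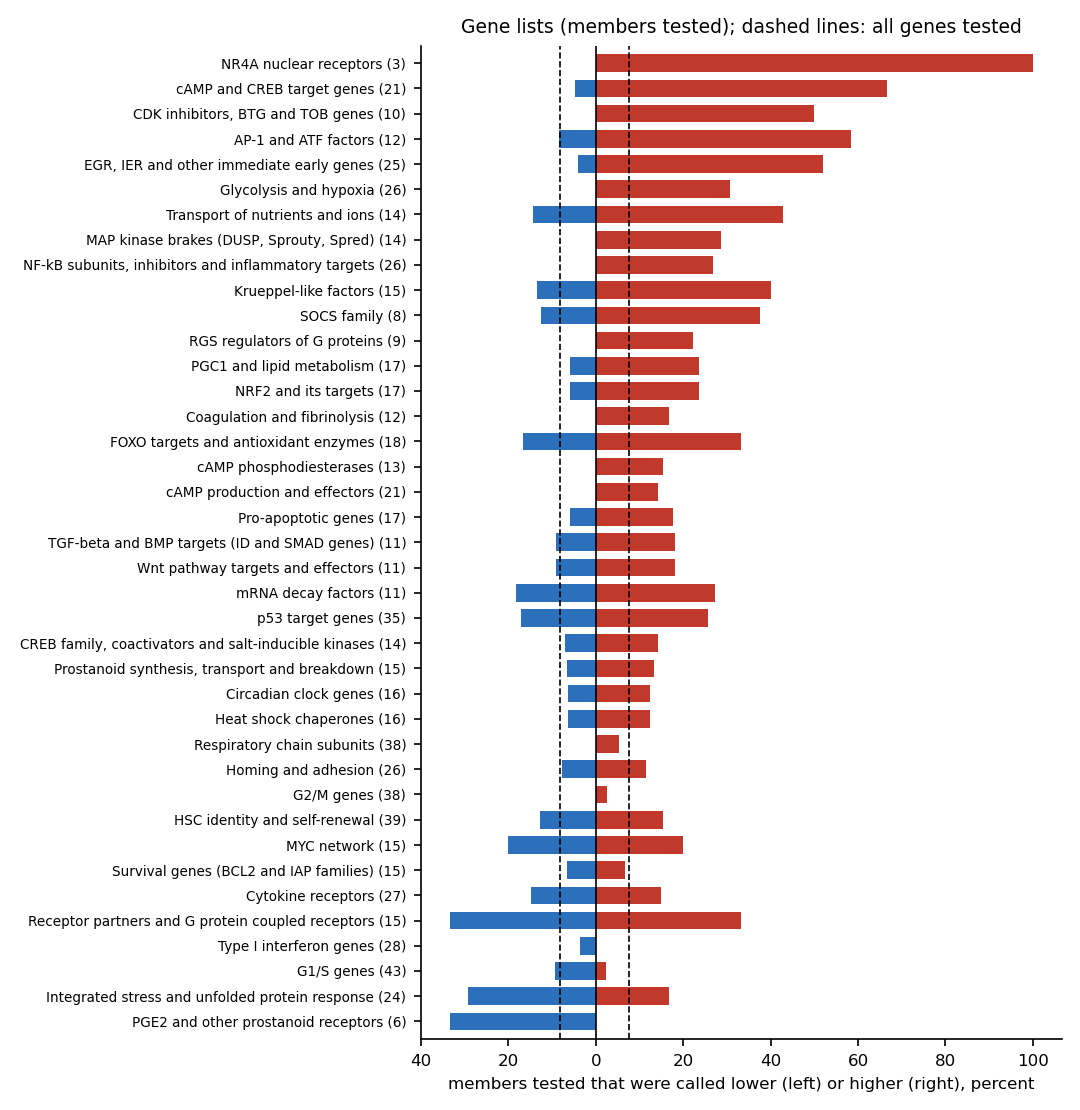
Share of each list's tested members (number in brackets) called higher (right, red) or lower (left, blue) with dmPGE2; dashed lines mark the shares over all 13572 genes, 7.57% higher and 8.21% lower. NR4A genes, cAMP and CREB targets, AP-1 and immediate early genes reach farthest right, and some lists share genes.

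Of 39 HSC identity genes, 6 were higher, 5 lower and 28 not called, where 7.57% of all genes were higher and 8.21% lower. The median was 0.01. With same-tag libraries summed 5 were higher and 2 lower. Foxo3, which protects HSC quiescence, went from a median of 5.73 to 12.4 CPM (1.11 ± 0.17). Mycn stood out in the other direction. This MYC family gene measured 84.9 to 124 CPM in dmPGE2 libraries (median 93.8) and 349 to 551 CPM in vehicle libraries (median 399.5). All 7 treated libraries were below all 15 vehicle libraries, and the log2 fold change was -2.12 ± 0.09 (adjusted p = 4.4e-15).

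The other large falls were in zinc finger genes and in genes of varied function. Rsrp1 fell from a median of 246 to 51.1 CPM (-2.13 ± 0.22), and Slfn2, a Schlafen gene linked to quiescence of immune cells, from 115 to 32.7 CPM (-1.84 ± 0.21). Neither overlapped between groups. The 15 largest falls also included Clec14a, Sema7a, Efna1, Lpar5, Fam84b, Zbed5 and the zinc finger genes Zfp719, Zfp108, Zfp418 and Zfp493, with log2 fold changes from -1.58 to -1.39. Zfp719 was the best expressed of the zinc finger genes and fell from a median of 55.5 to 17.8 CPM without overlap. Of the 30 genes with the largest rises and falls, 25 did not overlap between groups, against 375 of all 13572 genes tested. The choice by fold change favours such genes.

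The response was then set beside that of irradiated HSC at the same time. The 2 drug effects share no library. Among 13571 genes tested in both fits, dmPGE2 with radiation was called higher for 9.82% and lower for 10.2%. Of the 1028 genes higher without radiation, 463 (45%) were also higher with radiation and 35 were lower. Of the 1114 lower genes, 540 (48.5%) were also lower and 31 were higher. Klf2 (4.82 ± 0.44), Nr4a1 (3.87 ± 0.39), Plaur (3.84 ± 0.27), Fzd4 (2.85 ± 0.24) and Pde4d (1.93 ± 0.21) were higher with radiation too, and Cited2 (-2.72 ± 0.15) and Slfn2 (-1.72 ± 0.20) were lower.

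The difference of the drug effects, without minus with radiation, was called for 665 of 13995 genes (4.75%), 353 with a positive and 312 with a negative difference. It was called for 438 genes with vehicle set A only, for 569 with same-tag libraries summed, and for 426 when all 54 libraries shared 1 estimate of spread. Among the 15 largest rises the fold change was the greater without radiation for Cdkn1a, Sik1, Btg2, Ddit4, Plk2, Fosl2 and Vegfa. Each of these genes had a higher vehicle median with radiation than without. Sik1 rose by 4.10 without radiation and by 1.55 ± 0.23 with it (difference 2.55 ± 0.31, adjusted p = 2.1e-07). Its medians with vehicle and dmPGE2 were 19.6 and 351 CPM without radiation and 129 and 386.5 CPM with it. Btg2 differed by 3.03 ± 0.37 and was not called with radiation (0.19 ± 0.27). The Btg2 medians were 16.25 and 188 CPM without radiation and 669 and 838 CPM with it. Socs3 went the other way, with a rise of 4.84 ± 0.37 under radiation (difference -1.91 ± 0.45, adjusted p = 0.0062). S1pr1 also rose more with radiation (2.23 ± 0.16, difference -1.13 ± 0.21). Mycn fell less with radiation (-0.62 ± 0.14, difference -1.51 ± 0.19). Its medians were 395 and 92.2 CPM without radiation and 199 and 123 CPM with it. Cited2 fell more with radiation (difference 0.70 ± 0.19, adjusted p = 0.021).

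Cdkn1a changed direction. Its medians were 6.94 CPM with vehicle and 114 CPM with dmPGE2 in unirradiated HSC, and 628 CPM with vehicle and 305 CPM with dmPGE2 in irradiated HSC. The drug effect was thus 3.97 ± 0.18 without and -1.09 ± 0.20 with radiation, and the difference was 5.07 ± 0.27 (adjusted p = 1e-16). In both settings the levels of the vehicle and dmPGE2 groups did not overlap. For 36 p53 targets in this fit the difference was called positive for 23 and negative for none, and with radiation 23 of 35 were called lower and 2 higher. Gdf15, a stress cytokine, was at 0.754 to 2.39 CPM with vehicle and 0.951 to 2.92 CPM with dmPGE2 in the absence of radiation. In irradiated HSC it ran from 859 to 1560 CPM with vehicle and from 14.6 to 100.9 CPM with dmPGE2. For NF-kB genes, 17 of 26 differences were called positive and none negative, with 3 called higher and 16 lower under radiation. The plot of both drug effects places these genes away from the diagonal.

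**Figure D5:**
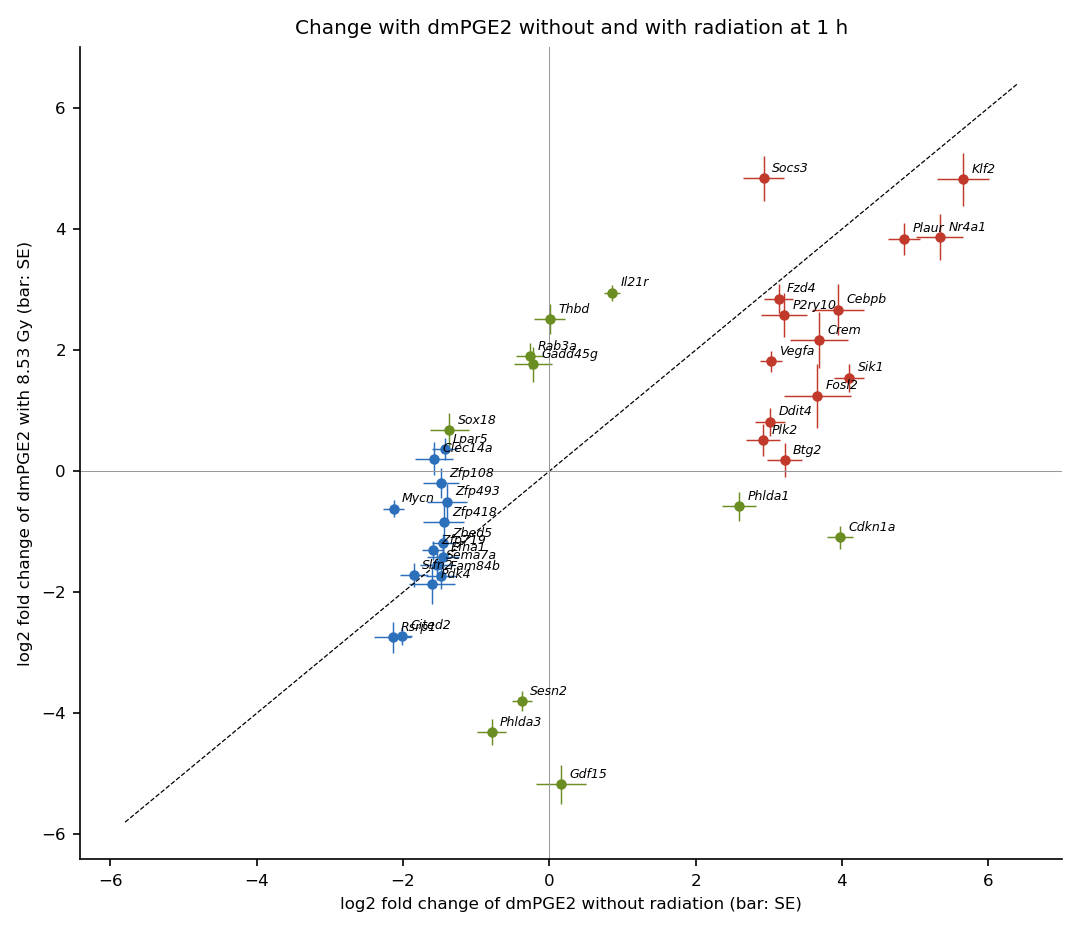
Log2 fold change of dmPGE2 without radiation (horizontal) and with 8.53 Gy (vertical) for the 15 largest rises (red) and 15 largest falls (blue) without radiation and the 10 genes with the largest called differences (green, Cdkn1a among them); bars are SE and the dashed line marks equal effects. Fzd4 and Slfn2 lie near the line, whereas Cdkn1a (3.97 and -1.09) and Gdf15 (0.16 and -5.17) lie far below it.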

How the data were processed

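Per the labels' protocols, the kits were SMART-Seq v4 for cDNA and Nextera XT for the libraries. The chemistry adds no molecular tags and keeps no strand, so counts are of reads. STAR 2.5.2b, featureCounts of Subread 1.5.1 and mm10 are named in the submitters' processing notes. The annotation used for counting has no statement in the sources used here. The authors deposited whole-number read counts per gene, unscaled, for 24421 genes and 54 libraries, and the summed exon length of each gene per the file headers, used here only for levels per kilobase. Columns of dmPGE2 without radiation name no time and were placed at 1 h because the labels give that group at no other time.

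Differences were tested in R 4.3.3 with edgeR 4.0.16: genes were kept by filterByExpr (count minimum 10), TMM factors scaled the libraries, and the quasi-likelihood model (robust) took the 22 libraries with 1 mean per group. The common dispersion was 0.0759. Adjusted p stands for the Benjamini-Hochberg value over all genes tested. For the SE, the size of each log2 fold change was divided by the root of F. Levels in CPM use the TMM factors, except the levels of Ly6a, Slamf1 and Cd48 and the sums over marker lists. Those use the library totals, and the sums cover every marker in the table. Log2 CPM used a prior count of 3. The drug effects with and without radiation were compared in 1 fit of 4 groups. Alternatives were RLE and upper quartile scaling, DESeq2 1.42.0, voom with quality weights (limma 3.58.1), other filters, other sets of libraries, a replicate block and leaving out each library. The scripts were tested on simulated counts.

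Named genes are the 15 highest and 15 lowest log2 fold changes among called genes averaging 2 or more in log2 CPM, the up to 4 called members of each list with the largest change, all tested receptors, NR4A genes, phosphodiesterases and CREB family genes, and the 5 highest and 5 lowest differences between drug effects. That average is of log2 CPM with the prior count, which leaves Ramp3 out of the 15 highest. Other list members were named after their values were seen. The comparison, lists and genes were chosen with earlier results of these data known. Vehicle sets A and B, summing by tag and the block within set A were added after the data were seen, as was the choice to show no promoter window that overlaps an annotated exon. Samples are of separate mice per the labels, with the doubt about vehicle tags given with the results. p-values otherwise measure the spread between these libraries.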

Additional observations from a re-analysis of the deposited data

Results flagged for a closer look

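In 3 of 30 genes checked, 1 of the 7 dmPGE2 libraries lay far from the others, and chance flags about 1 in 20 such groups. Lpar5 was lowest in the library with tag 24, at 2.27 log2 CPM where the next was 2.99. Clec14a was lowest in the library with tag 4, at 0.468 log2 CPM where the next was 2.02. Mycn was highest in that same library, at 6.96 log2 CPM where the next was 6.62, and this remained below every vehicle library.

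The drug effect without radiation differed from that with radiation, by the interaction contrast of edgeR's quasi-likelihood test, most strongly upward for Gdf15 (5.33 on the log2 scale), Cdkn1a (5.07), Phlda3 (3.52), Sesn2 (3.42) and Phlda1 (3.18). Phlda3 had medians of 5.64 and 3.45 CPM with vehicle and dmPGE2 without radiation and 412 and 17.1 CPM with radiation. Sesn2 had 30.7 and 25.5 CPM without and 560 and 38.5 CPM with radiation, and Phlda1 had 0.878 and 5.76 CPM without and 39.7 and 26.8 CPM with radiation. The largest negative differences were in Thbd (-2.51), Rab3a (-2.17), Il21r (-2.09), Sox18 (-2.05) and Gadd45g (-1.99). Thbd, thrombomodulin, had medians of 14.1 and 11.9 CPM without radiation and of 2.26 and 12.7 CPM with radiation. Il21r, a cytokine receptor gene, had 157 and 303 CPM without and 43.5 and 355 CPM with radiation. Sox18 had 20.4 and 6.71 CPM without and 3.3 and 6.38 CPM with radiation.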

How the results depend on the processing

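Over the settings that change scaling, filter, test or libraries, the counts of 1028 higher and 1114 lower genes stayed within 1.5 times: 992 and 1149 with RLE scaling, 737 and 1405 with the upper quartile, 1117 and 1333 with DESeq2, 1328 and 1271 with voom, 756 and 833 when all 54 libraries shared 1 fit, and 1143 and 1241 against vehicle set B. The median log2 fold change of all genes was 0.009, and -0.04 with the upper quartile. Leaving out 1 dmPGE2 library gave 805 to 971 higher and 889 to 1109 lower genes, and leaving out 1 vehicle library 908 to 1036 and 1042 to 1176. An adjusted p below 0.01 gave 590 and 686, and a test against a fold change of 1.5 gave 146 and 85. The difference between drug effects was called for 657 genes with RLE, 838 with DESeq2, 426 with 54 libraries in 1 fit and 438 with vehicle set A only; which genes were lost, and why, was not tested. With the tag as a replicate block, 1542 genes were higher and 1451 lower, and 1282 and 1322 within set A. Tags are not stated to pair dmPGE2 with vehicle libraries: same-tag correlations ran from 0.03 to 0.44, and 6 of 7 dmPGE2 libraries correlated best with their own tag. Of 137 called named genes, 120 kept their call against set A, 126 against set B, 127 with same-tag libraries summed and 136 under the block, and none reversed in any setting. Calls lost in several settings included those of Prkar2b, Socs1, Gfi1, Hpgd, Hmox1, Cldn5, Hspa1a, Atf3 and Pmaip1. Under the block Pde4a (0.36, adjusted p = 0.018), Creb1 (-0.29, 0.034), Creb3 (-0.23, 0.024) and Sik3 (0.25, 0.047) gained a call. For scarce genes such as Ptger2 (0.77 ± 0.70) the error was nearly as large as the value.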

Other observations

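Zinc finger genes named Zfp with a number, a group noticed after its values were seen, were lower in large numbers. Most encode DNA-binding C2H2 proteins, many of them KRAB repressors. Of 311 tested, 140 were called lower (45%) and 8 higher, with a median log2 fold change of -0.33. No overlap between groups was seen for 32 of the 311, against 375 of all 13572 genes tested. Among the 13260 other genes 7.35% were lower and the median was 0.01. Against vehicle set A 138 were lower and 5 higher, against set B 118 and 18, and with same-tag libraries summed 136 and 7. Zfp60 went from a median of 59.5 to 21.8 CPM (-1.38 ± 0.14), and Zfp719 from 55.5 to 17.8 CPM (-1.58 ± 0.13). In irradiated HSC, which share no library with this comparison, dmPGE2 lowered 97 of the 311 (31.2%) and raised 17, where 9.73% of other genes were lower. Their mean level was lower than that of other genes, with medians of 4.37 and 5.06 log2 CPM, and its part in the count was not tested. Exceptions that rose included Zfp64 (0.98 ± 0.15) and Zfp516 (0.93 ± 0.19).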
